A study of Mus musculus with 84 samples.

Results

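The smooth muscle contractile genes followed here are 10 of the 18909 genes in the count table: *Acta2*, *Actg2*, *Tagln*, *Cnn1*, *Cnn2*, *Myl9*, *Mylk*, *Tpm1*, *Tpm2* and *Cald1*. They were picked by symbol from knowledge of the contractile apparatus, with earlier results of these libraries known, so their levels in MEFs and ESCs describe them, and the calls given below are no independent evidence of a direction for the group. Expression was measured by STRT RNA-seq, a tagging method built for small samples that reads transcripts at their 5′ ends, in 84 wells that form 30 libraries in 10 groups of 3 biological replicates. MEFs were wild-type 129 mouse embryonic fibroblasts in serum medium without LIF but with FGF2 and heparin, and ESCs were the TNG MKOS embryonic stem cell line in medium with LIF. The other 24 libraries came from reprogramming of TNG MKOS fibroblasts, which carry a *Nanog*-GFP reporter that disrupts 1 *Nanog* allele and, at the *Sp3* locus, a doxycycline-inducible cassette of the reprogramming factors c-Myc, Klf4, Oct4 and Sox2 (MKOS) with mOrange and a CAG promoter-driven rtTA. These cells, from chimeric embryos, were grown among an excess of wild-type fibroblasts in ESC medium with LIF, vitamin C and 300 ng/ml doxycycline after infection with a retrovirus coding for blue fluorescent protein (Cont) or for constitutively active SMAD3 (+Sm3CA), and mOrange-positive cells were sorted at 4 times, day 3, day 6, day 8 and day 10. By the labels, Cont and +Sm3CA of the same day differed only in the vector and in the plate columns of their wells. MEFs and ESCs had neither doxycycline nor virus, and the MEFs lacked the cassette, so every step out of MEFs changed genotype, medium and infection together. Library totals ran from 1008596 to 2296059 reads, with a median of 1602511.

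In smooth muscle, force comes from myosin pulling on filaments of α- and γ-actin. Calcium and calmodulin activate myosin light chain kinase, which phosphorylates the regulatory light chain, while calponin, caldesmon, transgelin and tropomyosin sit on the thin filament and tune it. Cultured fibroblasts make many of the same proteins in their stress fibres. Many of these genes are classical targets of serum response factor (SRF), which binds the CArG box and is helped by myocardin-related factors that respond to the state of actin, and TGF-β is a well known inducer of the programme in fibroblasts.

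Promoter sequence was available for 8 of the 10 genes from RefSeq (GRCm38.p6, 250 bases before to 50 after each transcription start). A CArG box, 2 C, then 6 letters that are A or T, then 2 G, occurred in the windows of *Myl9* and *Cnn2*, against 1.63% of the 32851 windows of all genes. With 1 other letter allowed among the middle 6, it also occurred at a second place in *Myl9* and in *Acta2*, against 8.5% of all windows. The windows of 3 genes are printed, *Acta2* and *Myl9*, which were called lower in +Sm3CA on day 10, and *Cnn2*, which was not, with the matches of both kinds in capitals. They lie at chr19:34255324-34255623 (minus strand, *Acta2*), chr2:156775214-156775513 (plus strand, *Myl9*) and chr10:79988350-79988649 (plus strand, *Cnn2*).
Acta2: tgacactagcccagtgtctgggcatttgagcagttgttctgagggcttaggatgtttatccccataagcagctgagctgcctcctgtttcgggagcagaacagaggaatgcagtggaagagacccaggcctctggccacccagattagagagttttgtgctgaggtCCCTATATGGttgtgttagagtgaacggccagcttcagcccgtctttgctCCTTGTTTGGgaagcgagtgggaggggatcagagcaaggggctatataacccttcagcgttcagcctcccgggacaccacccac
Myl9: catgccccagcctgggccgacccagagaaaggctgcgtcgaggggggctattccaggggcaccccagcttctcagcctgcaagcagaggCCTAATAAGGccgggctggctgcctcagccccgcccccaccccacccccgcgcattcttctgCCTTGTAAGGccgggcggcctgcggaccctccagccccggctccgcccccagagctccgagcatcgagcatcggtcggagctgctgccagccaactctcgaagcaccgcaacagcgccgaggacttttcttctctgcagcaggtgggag
Cnn2: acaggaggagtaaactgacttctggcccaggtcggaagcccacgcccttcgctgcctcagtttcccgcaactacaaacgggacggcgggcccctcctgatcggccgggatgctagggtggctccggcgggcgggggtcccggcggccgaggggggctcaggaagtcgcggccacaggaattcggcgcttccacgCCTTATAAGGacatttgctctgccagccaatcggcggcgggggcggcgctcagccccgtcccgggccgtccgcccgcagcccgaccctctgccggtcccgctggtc
The 2 relaxed matches of *Acta2* began 84 and 34 bases before the start. The strict match of *Myl9* began 161 bases and its relaxed match 99 bases before the start, and that of *Cnn2* began 56 bases before it. The SMAD motif CAGAC (both strands) was in 5 of the 9 windows of these genes and in 49.6% of all windows, and the TEAD motif GGAATG (both strands) was in 4 of the 9 and in 14.7% of all. A match shows only that the letters are present.

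The vector was checked first through *Smad3* itself. Its normalized count, the reads of a library divided by its DESeq2 size factor, was 184, 89.0 and 126 in the +Sm3CA libraries on day 3 and 18.7, 5.19 and 8.94 in Cont. On day 10 it was 47.7, 32.8 and 44.3 against 14.8, 21.5 and 25.4. The groups did not overlap on either day. The log2 difference was 3.53 ± 0.34 (SE, adjusted p = 1.51e-08) on day 3 and 1.00 ± 0.36 (adjusted p = 0.12) on day 10. It was 2.02 ± 0.33 on day 6 and 3.11 ± 0.37 on day 8, both called. Reads of the vector and of the gene itself were not told apart.

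All 10 genes were far higher in MEFs than in any other group. Together they took 2.89% ± 0.22 (SD, n = 3) of the reads in MEFs, 0.149% ± 0.030 in Cont and 0.193% ± 0.011 in +Sm3CA on day 3, and 0.0138% ± 0.0065 in ESCs. *Acta2*, smooth muscle α-actin (chromosome 19, 34241090 to 34255590, minus strand, GRCm38), had normalized counts of 22826, 22462 and 15619 in MEFs and 12.8, 16.3 and 7.72 in ESCs. *Tagln*, the actin-binding protein transgelin (chromosome 9, 45929619 to 45936058, minus strand), had 10718, 11182 and 7127 in MEFs and 59.4, 3.61 and 1.29 in ESCs, where replicate 1 stood apart from the others. MEF replicate 3 was the lowest of the MEF libraries for both genes and the highest for *Cald1*, and all MEF libraries lay above the rest for each of these. *Actg2*, smooth muscle γ-actin (chromosome 6, 83512905 to 83536265, minus strand), had 2529, 2660 and 1455 in MEFs and no read in any ESC library. With 3 reads per library as the limit of detection, MEFs were at least 553-fold higher than ESCs. *Mylk*, the light chain kinase, was low everywhere, with 16.7, 31.5 and 14.7 in MEFs and at most 6.51 in the reprogramming libraries, and it did not pass the filter on low counts there.

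By day 3 most of this expression was gone. From MEFs to day 3, 10 of 10 genes were called lower in Cont, where 20.9% of 10979 genes were, and 10 of 10 in +Sm3CA, where 20.7% were (edgeR, adjusted p under 0.05). *Mylk* passed the filter of this fit only through its MEF reads, so its call lower followed from the filter and is no separate evidence. *Acta2* fell by 4.62 ± 0.30 on the log2 scale (SE) in Cont and by 4.51 ± 0.29 in +Sm3CA. The tropomyosin gene *Tpm1* fell by 3.64 ± 0.25 and 3.24 ± 0.25, and *Cald1*, caldesmon, kept the largest share of its MEF level, 14.6% in Cont and 16.3% in +Sm3CA. Between the end states, 10 of 10 genes were lower in ESCs than in MEFs, against 30.5% of all genes. There too the call of *Mylk* followed from the filter. From day 10 to ESCs 8 of 10 were lower in the step from Cont (30.3% of all genes) and 7 of 10 in the step from +Sm3CA (27.2%). *Cnn1* and *Mylk* passed in neither step, and *Myl9* passed only in the step from Cont, a difference between the steps that was not tested. These libraries are bulk samples, so fewer cells of a type and less RNA per cell cannot be told apart.

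**Figure D1:**
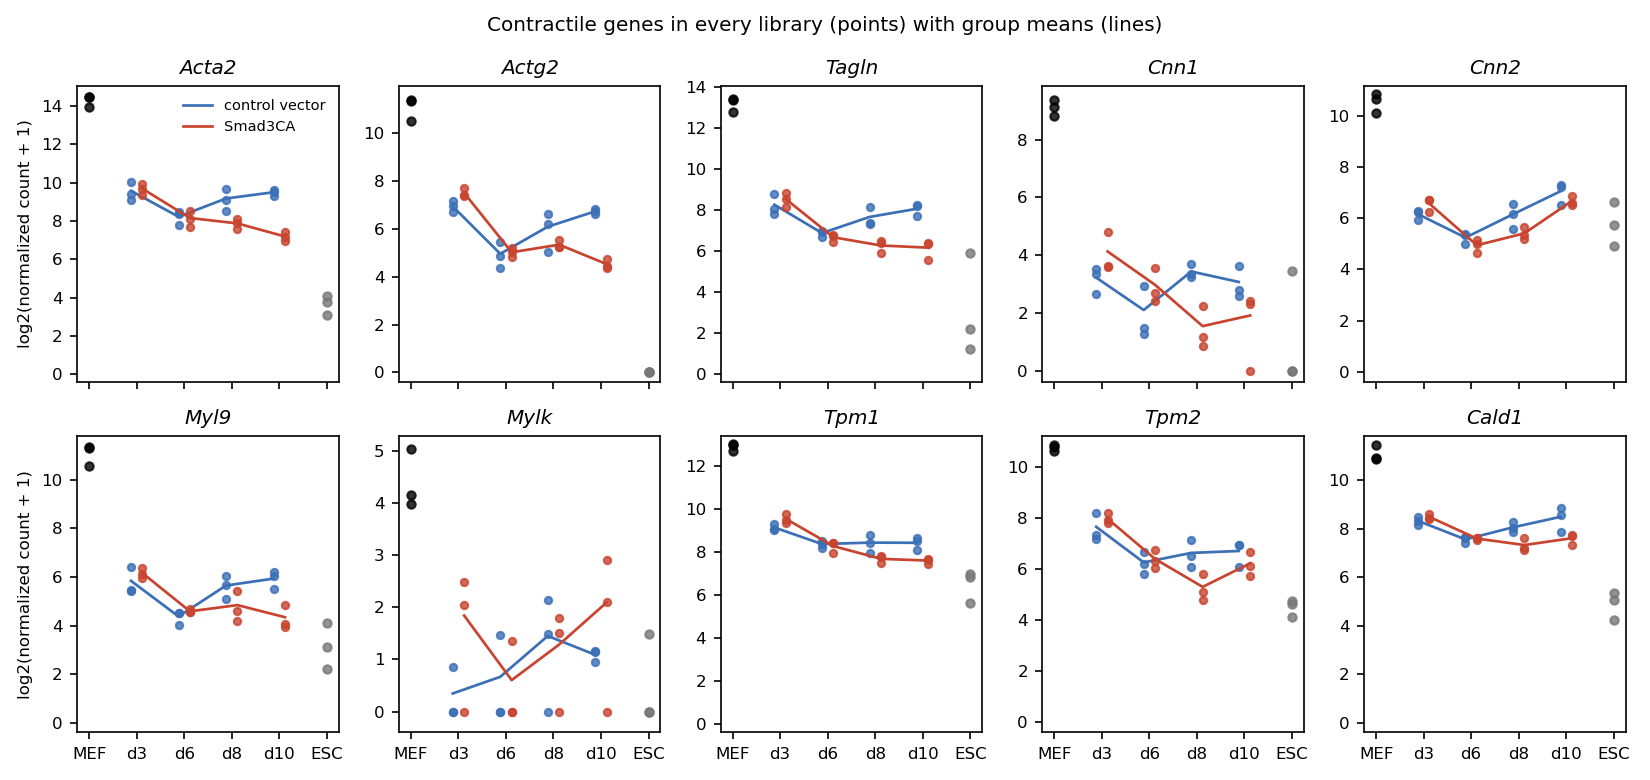
Normalized counts of the 10 contractile genes on a log2(count + 1) scale in MEFs, at each of the 4 reprogramming days and in ESCs. Points are single libraries, black points are MEFs and grey points ESCs, lines join the means of the Cont (control vector, blue) and +Sm3CA (red) groups, and the vertical axis differs between panels. *Acta2* was 22826, 22462 and 15619 in MEFs and fell to at most 1065 on day 3.

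During reprogramming the smooth muscle actins took courses that ended apart in Cont and +Sm3CA. In Cont, *Acta2* had 546, 1065 and 677 normalized counts on day 3, 222, 349 and 324 on day 6, 372, 818 and 543 on day 8 and 638, 795 and 743 on day 10. In +Sm3CA it had 667, 990 and 817 on day 3, 206, 275 and 374 on day 6, 188, 237 and 277 on day 8 and 172, 123 and 141 on day 10. The series overlapped on days 3 and 6 and were apart on days 8 and 10. Ordered by mean, MEFs came first, then day 3 of both series with Cont days 10 and 8, whose libraries overlapped from one to the next, then Cont day 6 with +Sm3CA days 6 and 8, again overlapping, then +Sm3CA day 10 and last ESCs. MEFs, +Sm3CA day 10 and ESCs were each apart from the next group in this order, as was Cont day 8 from Cont day 6, but the highest +Sm3CA library of day 6 reached the lowest Cont library of day 8. *Actg2* had 120, 140 and 102 in Cont on day 3, 19.4, 42.1 and 28.1 on day 6, 31.7, 96.0 and 72.2 on day 8 and 105, 95.6 and 113 on day 10. The +Sm3CA libraries had 165, 203 and 168, then 31.6, 27.2 and 35.1, then 37.1, 36.1 and 44.4, and 25.2, 19.7 and 20.8 on day 10. On day 10 the Cont libraries overlapped those of day 3 and the +Sm3CA libraries did not. *Acta2*, *Actg2* and the striated muscle actins *Acta1* and *Actc1* code for near-identical proteins. How alike their transcripts are was not measured here. How reads matching several of them were counted is not given in the sources used here. *Actg2* reads per 100 *Acta2* reads ran from 8.51 to 24.7 over the 24 reprogramming libraries.

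*Tagln* followed the actins. It had 226, 433 and 261 in Cont on day 3, 102, 124 and 123 on day 6, 158, 283 and 165 on day 8 and 211, 290 and 300 on day 10. Under +Sm3CA the counts were 288, 456 and 366, then 87.2, 106 and 109, then 58.1, 82.7 and 88.0, and 81.3, 84.1 and 46.9 on day 10. As with *Acta2*, the series were apart on days 8 and 10 only. *Cnn2*, calponin 2 (chromosome 10, 79988584 to 79996062, plus strand), a form found well beyond smooth muscle, had 59.7, 76.5 and 74.8 in Cont on day 3, 40.1, 30.6 and 39.5 on day 6, 46.4, 93.9 and 69.8 on day 8 and 91.4, 154 and 149 on day 10. With +Sm3CA it stood at 75.2, 103 and 103, then 23.9, 34.2 and 31.0, then 35.2, 39.8 and 49.2, and 116, 96.1 and 89.8 on day 10. Its day 10 libraries overlapped between the series and, in ESCs, it was still at 97.7, 28.9 and 52.7. *Cnn1*, calponin 1 (chromosome 9, 22099216 to 22109630, plus strand), the form typical of differentiated smooth muscle, went from 563, 673 and 448 in MEFs to at most 26.9 in any reprogramming library.

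*Myl9*, the regulatory light chain (chromosome 2, 156775420 to 156781658, plus strand), had 43.7, 83.0 and 42.3 in Cont on day 3, 15.2, 22.0 and 22.0 on day 6, 32.8, 64.4 and 50.1 on day 8 and 44.4, 71.7 and 64.1 on day 10. In +Sm3CA it had 81.4, 69.6 and 60.5, then 22.2, 22.5 and 24.3, then 17.3, 42.3 and 23.4, and 28.0, 14.2 and 15.6 on day 10. The series overlapped on days 3 and 8, were narrowly apart on day 6 and were well apart on day 10.

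The thin filament genes *Tpm1* (chromosome 9, 67022590 to 67049406, minus strand) and *Tpm2* (chromosome 4, 43514711 to 43523765, minus strand) code for tropomyosins. *Tpm1* had 530, 629 and 520 in Cont on day 3, 326, 293 and 365 on day 6, 248, 439 and 344 on day 8 and 270, 398 and 356 on day 10. The +Sm3CA libraries had 647, 852 and 722, then 243, 335 and 343, then 176, 221 and 213, and 205, 197 and 174 on day 10. On days 8 and 10 every +Sm3CA library lay below every Cont library. *Tpm2* had 144, 296 and 162 in Cont on day 3, 54.7, 71.8 and 100.1 on day 6 and 66.8, 138 and 89.5 on day 8. Under +Sm3CA the counts were 222, 288 and 240, then 79.5, 64.4 and 105, then 33.4, 27.0 and 54.9, so its series were apart on day 8. *Cald1* (chromosome 6, 34598500 to 34775473, plus strand) had 283, 316 and 363 in Cont on day 3, 195, 203 and 168 on day 6, 233, 260 and 307 on day 8 and 236, 461 and 384 on day 10. With +Sm3CA it stood at 352, 389 and 339, then 196, 186 and 197, then 194, 138 and 149, and 210, 214 and 161 on day 10. Cont replicate 1 of day 10 came within reach of +Sm3CA, and the other 2 Cont libraries lay well above.

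The first step was shared. From day 3 to day 6, 8 of the 9 genes tested were called lower in Cont, where 4.21% of 10237 genes were, and 8 of 9 in +Sm3CA, where 8.97% were. *Cnn1* was the exception in both, at 5.35, 9.08 and 10.6 normalized counts in Cont on day 3. The largest falls were those of *Actg2*, by 2.03 ± 0.26 on the log2 scale in Cont and by 2.51 ± 0.26 in +Sm3CA. For this step the difference between the series was called for 0 of 9 contractile genes and for 0% of all genes (edgeR and DESeq2 for the 9 genes), 0 of the 9 and 510 of all genes having an unadjusted p under 0.05.

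In the next step the calls within each series had different signs, with no difference called between the series. From day 6 to day 8, 4 genes were called higher in Cont, against 1.4% of all genes: *Acta2* by 0.94 ± 0.24, *Actg2* by 1.18 ± 0.27, *Myl9* by 1.32 ± 0.32 and *Cnn2* by 0.91 ± 0.24. In +Sm3CA no gene was called higher and *Tpm1* and *Tpm2* were called lower, against 3.7% of all genes. The count in Cont fell to 2 without day 6 replicate 2 and to 0 when replicate 1 or 3 of day 6, or replicate 2 or 3 of day 8, was left out. That in +Sm3CA fell to 1 without day 6 replicate 2 and to 0 without day 6 replicate 3 or day 8 replicate 1 or 2. The difference between the series in this step was called for 0 of 9 genes and for 0% of all genes. DESeq2 called *Acta2* alone. In edgeR 8 of the 9 genes, and 936 of all 10237, had an unadjusted p under 0.05.

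From day 8 to day 10 *Cnn2* was the only gene called in either series, higher by 0.91 ± 0.23 in Cont (1.58% of all genes called higher) and by 1.29 ± 0.24 in +Sm3CA (2.43%). In Cont 2 genes were called without day 10 replicate 1, and the call was lost without day 8 replicate 1 or 3 and without day 10 replicate 2 or 3. With replicate number as a block within each series, as the replicates are paired over days, 3 genes were called in +Sm3CA, *Cnn2* and *Tpm2* higher and *Acta2* lower. Without the block, 2 were called without day 8 replicate 3. A difference between the series in this step was called for 0 of the 9 genes by edgeR, where 0.186% of all genes were called. DESeq2 also called 0 of the 9. In edgeR 3 of the 9, and 1130 of all 10237 genes, had an unadjusted p under 0.05.

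Over the whole course the series ended at different levels. From day 3 to day 10 Cont had 2 genes called lower, *Tpm1* and *Tpm2*, against 11.6% of all genes, and 1 called higher, *Cnn2*, against 13.6%. In +Sm3CA 8 of 9 were called lower, against 16.2%, all but *Cnn2*. *Acta2* fell by 2.50 ± 0.26 on the log2 scale in +Sm3CA, and its change in Cont was -0.08 ± 0.23 (adjusted p = 0.838).

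**Figure D2:**
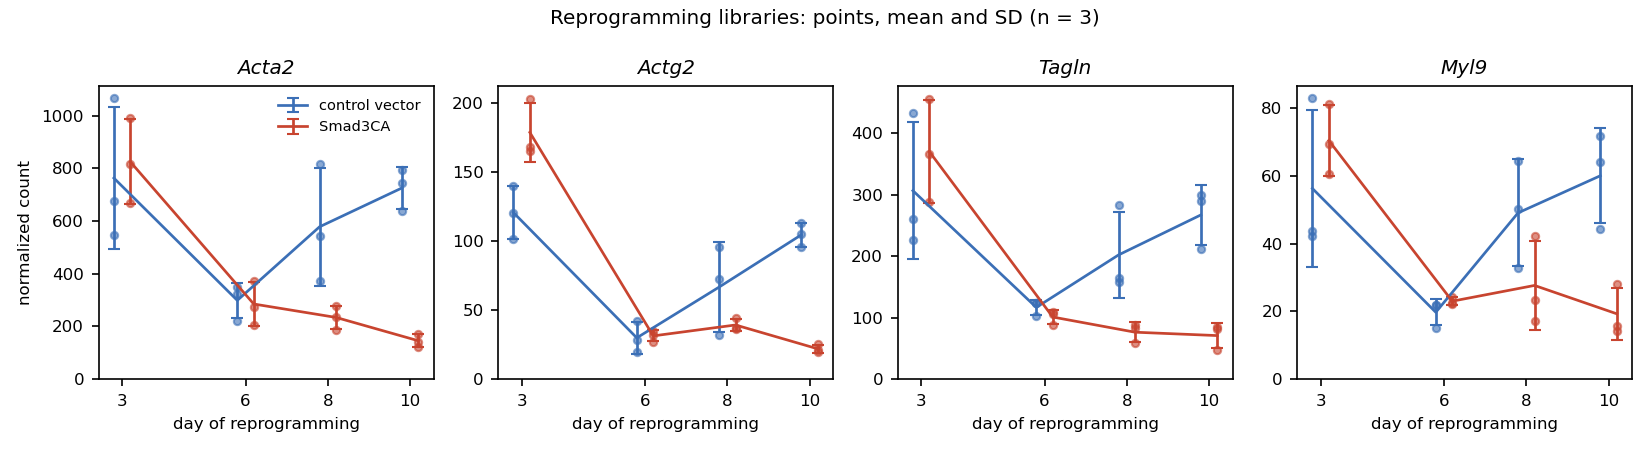
Normalized counts of *Acta2*, *Actg2*, *Tagln* and *Myl9* by day of reprogramming on linear axes from 0, with single libraries as points and the mean ± SD (n = 3) as lines and bars for Cont (blue) and +Sm3CA (red). *Acta2* averaged 725 in Cont and 145 in +Sm3CA on day 10.

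Set against each other on the same day, the series gave no call among the contractile genes early. On day 3, 0 of 9 genes were called, as were 0.0195% of all genes, and on day 6, 0 of 9 and 0.00977%. These calls are edgeR's, and DESeq2 also called 0 on both days. In edgeR 2 of the 9 genes on day 3 had an unadjusted p under 0.05, as had 523 of all 10237. On day 6 these numbers were 0 of the 9 and 426 of all. On day 3 all 9 log2 differences were above 0, with a median of 0.36, although *Acta2* fell to -0.08 without Cont replicate 1 and *Myl9* to -0.29 with 1 well per library, and the libraries of *Actg2*, *Cnn1* and *Tpm1* did not overlap, as was so with +Sm3CA higher for 5.66% of all genes. On day 6 this held for *Myl9* alone (5.14% of all genes). *Acta2* differed by 0.11 ± 0.23 on day 3 and by -0.06 ± 0.24 on day 6.

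On day 8, 5 of 9 genes were called lower in +Sm3CA, against 0.654% of all genes. *Tagln* was lower by a log2 difference of -1.39 ± 0.24 (adjusted p = 0.00138), *Acta2* by -1.29 ± 0.24 (adjusted p = 0.00287) and *Tpm2* by -1.36 ± 0.30 (adjusted p = 0.0156). The differences of *Tpm1*, -0.74 ± 0.18, and *Cald1*, -0.72 ± 0.19, passed more narrowly. *Actg2* at -0.77 ± 0.26, *Cnn2* at -0.75 ± 0.24, *Myl9* at -0.81 ± 0.30 and *Cnn1* at -2.26 ± 0.67 did not pass. The libraries of 6 genes did not overlap with +Sm3CA lower, as was so for 8.35% of all genes. The number called fell to 1, *Tagln*, without Cont replicate 2, to 3 without Cont replicate 3 or +Sm3CA replicate 1 and to 2 without +Sm3CA replicate 2.

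On day 10, 6 of 9 genes were called lower in +Sm3CA, against 2.74% of all genes. The 2 smooth muscle actins differed most, *Acta2* by -2.30 ± 0.26 (4.94-fold, adjusted p = 4.94e-07) and *Actg2* by -2.24 ± 0.29 (4.74-fold, adjusted p = 5.35e-06). *Tagln* was 3.72-fold lower (-1.90 ± 0.25, adjusted p = 6.12e-06) and *Myl9* 3.13-fold lower (-1.64 ± 0.34, adjusted p = 0.00246). The differences of *Cald1*, -0.87 ± 0.19, and *Tpm1*, -0.81 ± 0.19, were smaller. *Tpm2* at -0.49 ± 0.30, *Cnn2* at -0.37 ± 0.23 and *Cnn1* at -1.34 ± 0.76 did not pass. The median over the 9 genes was -1.34, beside -0.01 over all genes, and the libraries of 7 did not overlap with +Sm3CA lower, as was so for 11.9% of all genes. Single wells, the technical repeats, were also apart for *Acta2*, with 73.9 to 132 CPM over 6 +Sm3CA wells and 413 to 715 over 6 Cont wells. *Tpm2* had 66.7, 123 and 121 normalized counts in Cont and 99.5, 52.4 and 69.0 in +Sm3CA, and *Cnn2* 91.4, 154 and 149 against 116, 96.1 and 89.8, so both overlapped. Without 1 library, 4 to 6 genes were called, the fewest without Cont replicate 2 or +Sm3CA replicate 3. *Tpm1* lost its call without Cont replicate 2 or 3 or +Sm3CA replicate 3, and *Cald1* without Cont replicate 2 or +Sm3CA replicate 3.

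The change from day 3 to day 10 itself differed between the series for 6 of 9 genes, all lower in +Sm3CA, against 0.899% of all genes. The log2 interaction was -2.81 ± 0.37 for *Actg2* (adjusted p = 4.77e-05), -2.42 ± 0.34 for *Acta2* (adjusted p = 8.74e-05) and -2.17 ± 0.34 for *Tagln* (adjusted p = 0.000186). It was -2.00 ± 0.44 for *Myl9*, -1.21 ± 0.26 for *Tpm1* and -1.02 ± 0.26 for *Cald1*, with adjusted p from 0.0121 to 0.042. The count fell to 3 without Cont day 3 replicate 1, without Cont day 10 replicate 2 or without +Sm3CA day 10 replicate 3, and the call of *Cald1* held only without Cont day 10 replicate 1 among the libraries of those groups left out in turn. Over all alternatives run, *Acta2* and *Actg2* kept their calls, while *Tagln*, *Myl9* and *Tpm1* each lost theirs under at least 1. The log2 interaction of *Myl9* was as small as -1.18 under 1 of them. On the plate, days 6 and 8 lay in one block of rows and in different columns, and days 3 and 10 each lay in other rows, so for day 3 and for day 10 against the other days, day and plate row cannot be told apart. Cont and +Sm3CA of a day shared rows and lay in different columns, so for these comparisons vector and plate column cannot be told apart.

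**Figure D3:**
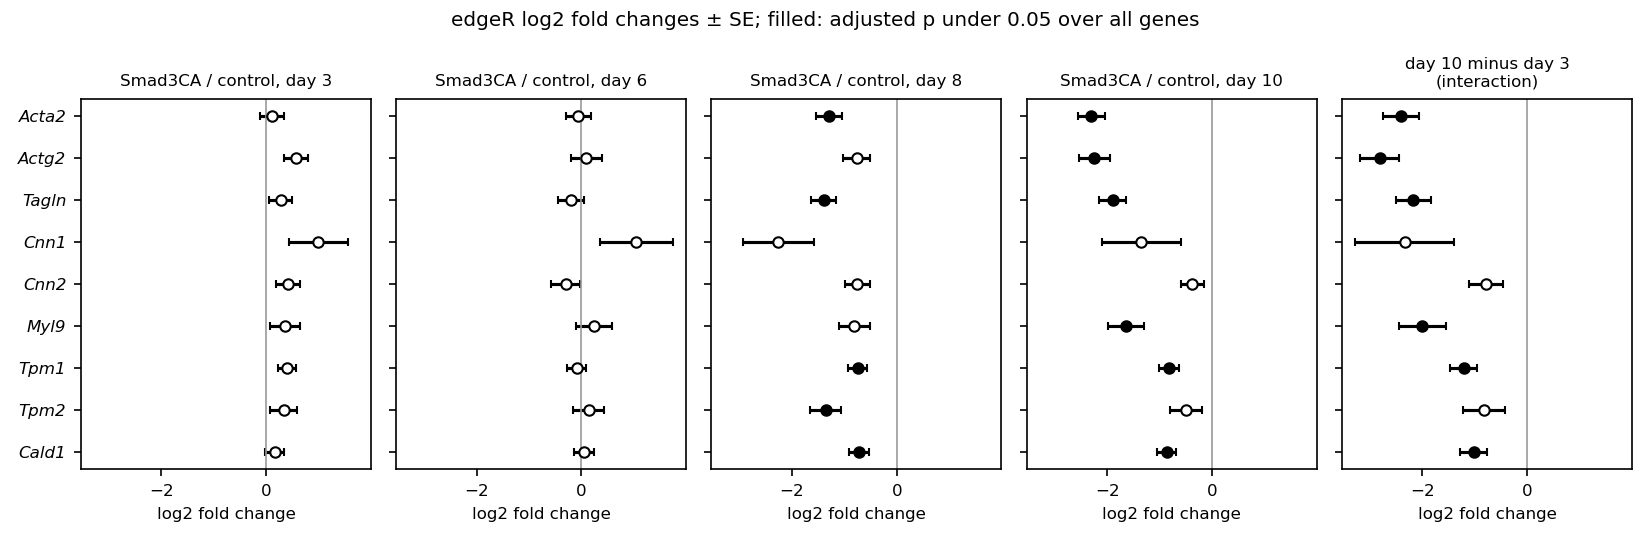
edgeR log2 fold changes of +Sm3CA against Cont with SE for the 9 tested genes on days 3, 6, 8 and 10, and in the last panel the interaction of day 10 against day 3. Filled points passed an adjusted p of 0.05 over all genes; they number 0, 0, 5, 6 and 6 from left to right.

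Other genes of the same machinery were taken from lists. From MEFs to Cont day 3, where 20.9% of all genes were called lower, so were 14 of 15 other smooth muscle genes tested, 22 of 23 crosslinker and focal adhesion genes, 12 of 13 genes that respond to TGF-β or YAP and 9 of 13 other actins, myosins and tropomyosins. Only 7 of the other smooth muscle genes and 12 of the other actins, myosins and tropomyosins passed the filter in the reprogramming libraries alone. The rest entered through MEFs or ESCs, and for genes high in MEFs a call lower followed from the filter. Of 20 regulators of SRF and RhoA signalling tested, 12 were called lower and 2 higher, beside 22.6% of all genes called higher. Of 20 other smooth muscle genes 7 were tested in the reprogramming libraries, and 0 were called on day 10, with a median of -0.17. Among those named, the LIM protein gene *Pdlim7* and the calponin gene *Cnn3* differed on day 10 by -0.62 ± 0.22 and -0.31 ± 0.24 with no call. *Myh11*, the smooth muscle myosin heavy chain and the defining marker of differentiated smooth muscle, averaged 53.8 ± 10.2 normalized counts (SD, n = 3) in MEFs and reached at most 7.41 in a reprogramming library. It was named as a marker, outside the rule for named genes. It had no read in ESCs.

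The day 10 counts that follow stand beside 2.74% of all genes called lower, 0.83% called higher and 0.899% called lower in the interaction. Among 14 other actins, myosins and tropomyosins 12 were tested, and 1 was called lower on day 10, the non-muscle tropomyosin gene *Tpm4* at -0.63 ± 0.17 (adjusted p = 0.0212). *Myl6*, the essential light chain, differed by -0.49 ± 0.17 and *Tpm3* by -0.11 ± 0.16, neither called. Of 24 crosslinker and focal adhesion genes 23 were tested and 4 were called lower, *Msn*, which links actin to the membrane, at -1.35 ± 0.21, the integrin gene *Itgb1* at -0.87 ± 0.17, and, named after their values were seen, *Pdlim1* at -0.90 ± 0.24 and the filamin gene *Flnc*, which rested on few reads with means of 6.90 in Cont and 0.434 in +Sm3CA. *Tln1*, talin, at -0.38 ± 0.37, was not called. Of 24 regulators of SRF and RhoA signalling, 20 were tested and 0 were called on day 10 with a median of 0.07. Among these were the cofilin gene *Cfl2* at -0.52 ± 0.21, the phosphatase subunit gene *Ppp1cb* at 0.38 ± 0.20 and *Mkl2*, a partner of SRF, at 0.33 ± 0.36. Of the 13 genes known to respond to TGF-β or YAP, all were tested and 8 were called lower, with a median of -1.16. *Thbs1*, thrombospondin, differed by -2.10 ± 0.30, *Lox*, a collagen crosslinker, by -1.57 ± 0.25 and *Ctgf* by -0.86 ± 0.24. The interaction was called lower for 4 of the 13, *Bgn*, biglycan, being the one not yet named, at -1.54 ± 0.37. On day 8, 0.654% of all genes were called lower. So were 1 of the 7 other smooth muscle genes, *Hspb1* at -1.02 ± 0.21, and 1 of the 12 other actins, myosins and tropomyosins, *Actb* at -0.77 ± 0.19. Both were named after their values were seen. Of the genes that respond to TGF-β or YAP 3 of 13 were called lower on day 8. Of the crosslinker and SRF lists 0 of 23 and 0 of 20 were.

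**Figure D4:**
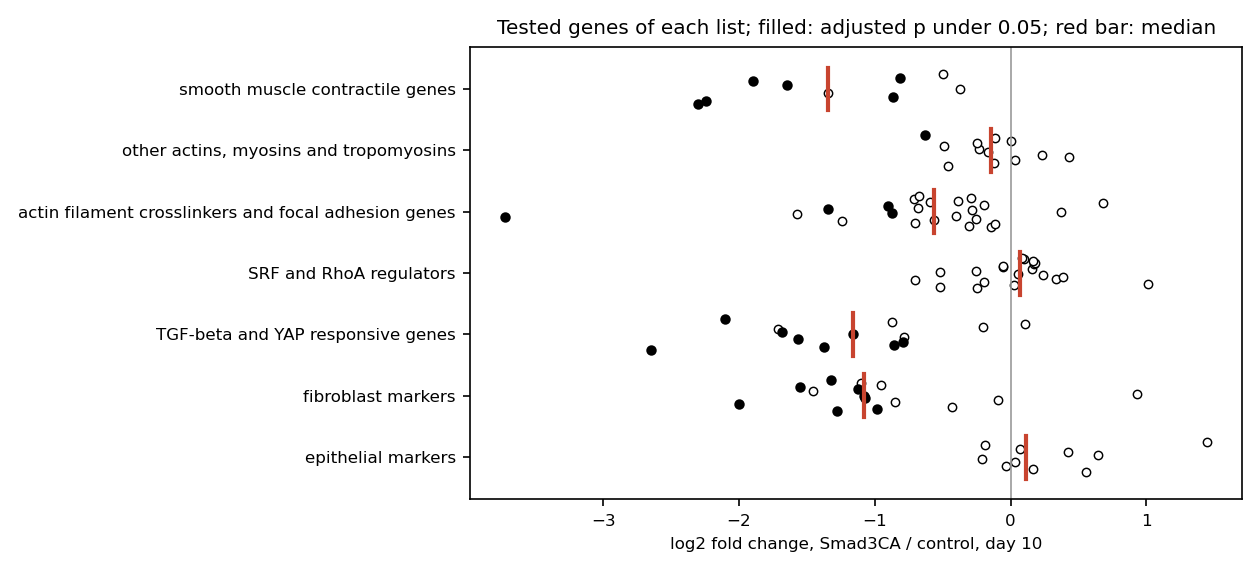
edgeR log2 fold changes of +Sm3CA against Cont on day 10 for the tested genes of 7 lists. Each point is a gene, filled where the adjusted p over all genes was under 0.05, and the red bar is the median of the list, -1.34 for the contractile genes and 0.07 for the SRF and RhoA regulators.

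Markers of other cell types moved with some of these differences, and their part in them was not tested. Of 17 fibroblast markers 15 were tested, 8 were called lower in +Sm3CA on day 10, against 2.74% of all genes, and none higher. Their summed level was 1944, 4080 and 3944 in Cont and 2083, 2061 and 1676 in +Sm3CA, so Cont replicate 1 lay within the +Sm3CA range. The marker with most reads was *Vim*, at 441 ± 184 and 174 ± 32.0. *Fn1* differed by -1.08 ± 0.21, *Fbn1* by -1.07 ± 0.22 and *Col1a2* by -0.98 ± 0.22. The interaction was called lower for 5 of the 15, against 0.899% of all genes, these 3 with *Col1a1* at -1.67 ± 0.41 and *S100a4* at -1.74 ± 0.45, named after their values were seen. Of 6 pericyte markers 2 were tested and *Cspg4* was called lower, at 15.3 ± 4.4 in Cont and 3.86 ± 2.90 in +Sm3CA. *Notch3* was not called.

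Of 8 macrophage markers 6 were tested and 0 called, with *Lyz2* the one with most reads and a summed level of 620, 2717 and 2545 in Cont and 946, 874 and 1568 in +Sm3CA on day 10. *C1qb* differed by -1.69 ± 0.60, *Emr1* by -1.46 ± 0.47 and *Fcgr3* by -1.80 ± 0.65, none called. Of 10 epithelial markers, with *Krt8* the one with most reads, all were tested and 0 called on day 10. *Krt8*, *Epcam* and *Cldn4* differed by -0.19 ± 0.17, 0.64 ± 0.24 and -0.03 ± 0.34. The pluripotency markers had 3 of 9 tested called higher, against 0.83% of all genes, with *Dppa5a* at 1.35 ± 0.33 and *Zfp42* at 1.03 ± 0.25, and *Tfcp2l1*, named after its value was seen, at 1.40 ± 0.41, while *Dppa4* at 1.39 ± 0.64 was not called.

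Skeletal muscle, cardiac muscle and endothelial markers were mostly too low to test, with 2 of 13, 2 of 11 and 1 of 7 tested and 0 called on day 10. No marker of any of these lists that is in the table lacked reads in all libraries. *Myog* had reads in 1 library, *Ckm* in 3 and *Cdh5* in 3, and *Pecam1* reached at most 3.77 normalized counts in a reprogramming library. The skeletal regulators *Myod1*, *Myf5* and *Myf6* and the cardiac regulator *Nkx2-5* were not analysed here. Among those tested, *Mylpf* had 17.1 ± 12.2 in Cont and 36.7 ± 9.1 in +Sm3CA, *Actn2* 5.36 ± 5.68 and 0.798 ± 0.699, *Myl4* 45.5 ± 8.3 and 75.7 ± 10.6, *Myl7* 28.9 ± 18.8 and 38.0 ± 13.8, and the endothelial *Tek* 14.0 ± 4.0 and 8.35 ± 1.68. *Mylpf* had the most reads of the skeletal list. The summed level of that list was 24.3 ± 15.8 in Cont and 37.9 ± 10.1 in +Sm3CA on day 10, and 330 ± 118 in ESCs.

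Likeness to the group was measured as Pearson's correlation of log2 group means over the 10 groups with the mean profile of the contractile genes, among 3722 other genes with a mean of at least 50 normalized counts, as a description. Both sides of each correlation come from the same libraries, whose MEF level stands far from the rest, and 2 of the 10 genes were also among the 10 highest by Spearman's rho. The closest was the skeletal α-actin gene *Acta1* (r = 0.98), whose protein is near-identical to that of *Acta2*. It averaged 705 in MEFs and, on day 10, 10.2 in Cont and 7.06 in +Sm3CA. That day 10 difference was not called (log2 difference -0.46 ± 0.69, edgeR). *Ctgf*, *Pmaip1*, *Axl*, *Phldb2*, *Pdcl3*, *Itgb1*, *Lrrc58*, *Actr10* and *Hspa13* followed, at r of at least 0.97. Within the group *Tagln* lay closest to the mean profile (r = 0.99) and *Mylk* farthest (r = 0.85), *Mylk* resting on a few reads. That profile includes each of these genes itself, so their r cannot be compared with those of other genes.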

How the data were processed

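STRT libraries of 84 wells were sequenced, and the authors deposited a table of whole-number counts of reads for each gene in each well, not normalized. The submitters' processing notes name Bowtie 0.12.9, DESeq2 1.6.3 and mm10, and the order and settings are not given in the sources used here. Reads rather than molecules were counted, so PCR copies are included. The 2 or 3 wells of a replicate, technical repeats, were summed to 30 libraries of 1008596 to 2296059 reads (no column was left unmapped, and no pair of libraries was identical).

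Levels are counts over DESeq2 1.42.0 size factors of all 30 libraries. Tests were edgeR 4.0.16 quasi-likelihood fits (TMM, filterByExpr, group means, R 4.3.3) with Benjamini-Hochberg adjustment over all genes tested at 0.05: 1 fit of 24 reprogramming libraries (10237 genes) and, for steps from MEFs or to ESCs, 1 of 30 (10979 genes). SE is the log2 fold change over the root of F. Genes named were the 10 members, in each list the 3 tested genes with the smallest adjusted p of the day 10 interaction, and the 10 genes most like the members. Exceptions are stated, and 1 gene that the rule names is not reported here. The members and lists were chosen with earlier results of these data known. The fits were tested on simulated data with large changes, placed in genes with more than a few reads, and the same spread for every gene. Recovery of smaller changes, or of changes in genes with few reads, was not tested. Alternatives were DESeq2 size factors, the DESeq2 Wald test, no filter, all 30 libraries, only the groups compared, a replicate block, 1 well per library, a threshold of 0.01, each library left out, CPM and Spearman's rho.

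The design text pairs replicates over days within a series. Deviations of same-numbered libraries correlated from -0.121 to 0.185 (median 0.00712, 36 pairs, 8628 genes) within series and from -0.162 to 0.0914 (12 pairs) between series, where no pairing is stated.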

Additional observations from a re-analysis of the deposited data

Results flagged for a closer look

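The change from day 3 to day 10 differed between +Sm3CA and Cont by the interaction test for these genes of the text. Among the contractile genes the log2 differences in change were -2.81 for *Actg2*, -2.42 for *Acta2*, -2.17 for *Tagln*, -2.00 for *Myl9*, -1.21 for *Tpm1* and -1.02 for *Cald1*. Of the other genes named they were -1.54 for *Msn*, -1.74 for *Lox*, -1.96 for *Thbs1*, -1.38 for *Fn1*, -1.44 for *Ctgf*, -1.25 for *Fbn1*, -1.30 for *Col1a2*, -0.93 for *Itgb1*, -1.54 for *Bgn*, -1.67 for *Col1a1* and -1.74 for *S100a4*. For *Smad3*, which the vector carries, it was -2.54. In each case the log2 change in +Sm3CA was below that in Cont.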

How the results depend on the processing

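The calls on days 3 and 6 (0 of 9) and on day 10 moved by no more than 1.5 times under any alternative run, with 5 to 6 genes called on day 10 and 4 to 6 with a library left out. *Acta2*, *Actg2*, *Tagln* and *Myl9* were called on day 10 under each of them, and *Tpm1* was not with all 30 libraries (the highest adjusted p over its alternatives was 0.0908). On day 8, where 5 were called, 2 were called at a threshold of 0.01, with all 30 libraries and with only the groups compared in the fit, and 1 to 7 with a library left out. The day 10 interaction of 6 genes became 3 at 0.01 and with all 30 libraries, and 3 to 6 with a library left out. The rise from day 6 to 8 in Cont (4 genes) became 0 at 0.01, 2 with all 30 libraries, 2 with 1 well per library and 0 to 4 with a library left out. That from day 8 to 10 in Cont (1) became 0 under the same 3 settings and with only the groups compared, and 0 to 2 with a library left out. The fall from day 6 to 8 in +Sm3CA (2) became 0 at 0.01, 1 with all 30 libraries, with only the groups compared and with 1 well, and 0 to 2 with a library left out. The step from day 8 to 10 in +Sm3CA (1) became 3 with no filter and with the replicate block within series, and 1 to 2 with a library left out. The step interactions (0) became 1 by DESeq2 and 3 with no filter for days 6 to 8, and 2 with no filter for days 8 to 10, and 0 to 1 with a library left out. With the number as a block across series, where no pairing is stated, 4 genes were called on day 8 and 6 on day 10; the block within series changed no other call count by over 1.5 times.

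Uncalled signs turned for *Myl9* on day 3 (-0.29) and *Tpm1* on day 6 (0.087) with 1 well per library. With a library left out, *Acta2* ran from -0.078 to 0.43 on day 3. On day 6 *Acta2* ran from -0.29 to 0.12, *Actg2* from -0.16 to 0.40, *Tpm1* from -0.17 to 0.048, *Tpm2* from -0.061 to 0.39 and *Cald1* from -0.032 to 0.093. The summed level as percent of MEFs moved under CPM from 2.29 to 2.54 (Cont day 6), 4.38 to 5.27 (Cont day 10), 1.72 to 2.10 (+Sm3CA day 8) and 1.72 to 2.04 (+Sm3CA day 10). Scaling by ERCC spike-ins was not run, as the table used here has 0 ERCC rows. *Cnn1* rests on few reads and was called on day 8 only with no filter on low counts (adjusted p = 0.0445, up to 0.226 over its alternatives), and *Mylk* was too low to test between the series. The causes of these shifts were not tested.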
